A study of Mus musculus with 24 samples.

Results

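The keratin-associated protein genes (Krtap) and the late cornified envelope genes (Lce) of mouse liver were described here across 3 genotypes. Members were the genes whose symbol starts with Krtap or with Lce and a number and for which the array holds a probe set that carries 1 symbol. With this rule 63 genes were found (44 Krtap and 19 Lce) among the 19938 genes with such a probe set, and each was measured by 1 probe set. The study compared livers of male mice at 24 weeks of age, with 8 alb-SREBP-1a∆P mice, 8 alb-SREBP-1a mice and 8 C57Bl6 mice, and 1 Affymetrix Mouse Gene 1.0 ST array per mouse. In alb-SREBP-1a mice the albumin promoter, which is active in hepatocytes, drives the HA-tagged N-terminal part of human SREBP-1a, a transcription factor of lipid synthesis. In alb-SREBP-1a∆P mice (∆P in the plots) the transgene lacks its MAPK phosphorylation sites. Both transgenic lines are on the C57Bl6 background, C57Bl6 mice carry no transgene, and the mice of each genotype were litter mates on regular chow. The number of founders behind each line is not given in the sources used here.

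Keratin-associated proteins form the matrix in which the keratin filaments of the hair shaft lie, and they are crosslinked to the hair keratins through disulfide bonds. Late cornified envelope proteins are small proteins that are crosslinked by transglutaminases into the cornified envelope, the shell under the membrane of the outermost epidermal cells. Both families are known from hair follicle and epidermis and are not known as products of hepatocytes. They are small genes in tight clusters, made by repeated duplication, so that the members of a subfamily resemble each other.

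Of the 63 genes, 19 lie on mouse chromosome 3 (the Lce genes, in the epidermal differentiation complex), 21 on chromosome 16, 15 on chromosome 11, 5 on chromosome 7 (the Krtap5 genes) and 3 on chromosome 10. RefSeq (GRCm38.p6) promoters, from 250 bases before to 50 bases after the annotated start, were matched for 58 of the 63 genes. The 7 sequences below belong to genes with large changes in the comparisons that follow, and they are shown so that the start regions of both families can be set side by side. Each is printed 5′ to 3′ on the strand of the gene, and capitals mark TATAAA, the core letters of a TATA box.
Krtap5-2 (chr7:142175956-142176255, minus strand): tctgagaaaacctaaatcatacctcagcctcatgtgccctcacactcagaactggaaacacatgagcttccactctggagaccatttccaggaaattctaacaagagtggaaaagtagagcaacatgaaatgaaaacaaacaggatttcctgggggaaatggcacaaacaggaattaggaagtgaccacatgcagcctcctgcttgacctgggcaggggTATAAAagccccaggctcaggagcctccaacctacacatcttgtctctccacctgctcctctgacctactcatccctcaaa
Krtap5-1 (chr7:142297085-142297384, minus strand): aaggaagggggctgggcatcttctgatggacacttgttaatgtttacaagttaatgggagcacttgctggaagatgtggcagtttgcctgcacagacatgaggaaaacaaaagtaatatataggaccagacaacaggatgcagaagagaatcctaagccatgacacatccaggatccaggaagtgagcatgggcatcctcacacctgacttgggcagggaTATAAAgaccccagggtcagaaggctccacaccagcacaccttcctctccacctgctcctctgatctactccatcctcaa
Krtap5-3 (chr7:142201114-142201413, plus strand): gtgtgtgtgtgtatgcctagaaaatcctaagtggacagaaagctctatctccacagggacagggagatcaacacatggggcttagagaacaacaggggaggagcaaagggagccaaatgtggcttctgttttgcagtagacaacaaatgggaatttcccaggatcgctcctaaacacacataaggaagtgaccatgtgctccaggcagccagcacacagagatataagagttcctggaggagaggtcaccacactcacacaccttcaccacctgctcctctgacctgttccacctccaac
Krtap31-2 (chr11:99936041-99936340, plus strand): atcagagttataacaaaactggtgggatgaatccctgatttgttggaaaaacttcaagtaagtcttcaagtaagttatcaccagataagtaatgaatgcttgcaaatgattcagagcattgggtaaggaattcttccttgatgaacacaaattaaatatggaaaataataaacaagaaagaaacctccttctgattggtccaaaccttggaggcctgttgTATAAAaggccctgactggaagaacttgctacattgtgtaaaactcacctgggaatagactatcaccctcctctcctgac
Krtap8-1 (chr16:89487903-89488202, minus strand): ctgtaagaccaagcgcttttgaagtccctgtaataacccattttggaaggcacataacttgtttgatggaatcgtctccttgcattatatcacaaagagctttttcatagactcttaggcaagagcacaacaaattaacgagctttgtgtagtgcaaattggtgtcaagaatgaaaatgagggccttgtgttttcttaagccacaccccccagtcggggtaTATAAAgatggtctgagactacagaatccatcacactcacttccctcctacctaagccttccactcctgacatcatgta
Lce3a (chr3:92926181-92926480, minus strand): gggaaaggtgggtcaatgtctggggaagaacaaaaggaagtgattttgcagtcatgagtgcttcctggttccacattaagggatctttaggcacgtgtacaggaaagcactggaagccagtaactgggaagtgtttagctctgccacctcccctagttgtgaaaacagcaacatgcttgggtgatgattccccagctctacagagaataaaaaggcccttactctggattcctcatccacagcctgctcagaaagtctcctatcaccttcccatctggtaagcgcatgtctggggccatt
Lce3c (chr3:92944236-92944535, plus strand): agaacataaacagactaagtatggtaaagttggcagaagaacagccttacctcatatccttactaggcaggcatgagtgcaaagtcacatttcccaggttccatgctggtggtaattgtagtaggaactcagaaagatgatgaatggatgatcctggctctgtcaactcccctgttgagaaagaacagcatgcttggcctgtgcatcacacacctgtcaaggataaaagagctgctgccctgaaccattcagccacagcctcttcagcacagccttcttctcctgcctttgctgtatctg

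The letters TATAAA, searched on both strands, stood in 35 of the 58 promoters (60.34%), against 13.62% of all 32851 promoters of the same length. With the start 20 to 40 bases downstream on the same strand they stood in 24 of 58 (41.38%), against 1.99% of all promoters. The 2 families differed in this: 32 of 40 Krtap promoters (80.0%) held TATAAA and 3 of 18 Lce promoters (16.67%) did. In the Lce3a, Lce3c and Krtap5-3 sequences above no TATAAA was found. The Krtap5-1, Krtap5-2, Krtap5-3 and Krtap5-5 promoters share the run ccacctgctcctctga just after the start, which 10 of the 32851 promoters hold. Other letters searched on both strands were TGANTCA (AP-1) in 8 of 58 promoters (13.79%, against 7.81% of all promoters), CTTTGAA (TCF/LEF) in 10 (17.24%, against 5.14%) and the E-box CACGTG in 4 (6.9%, against 7.15%). A match of letters is a description and not a binding site. Within subfamilies the promoters of Krtap19-1 and Krtap19-2 were 91.2% identical, those of Krtap31-1 and Krtap31-2 86.7%, those of Lce1g and Lce1i 86.0%, and those of the Krtap5 genes 49.3 to 62.3%. For Krtap19 and Lce1 these were the highest pairs, with medians over all pairs of 48.9% and 64.6%.

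The values are log2 signals after RMA, called levels here, and a change is a difference of mean levels with its standard error. A gene rose or fell where the limma p, adjusted over all 35556 probe sets, was under 0.05. The levels of the 63 genes were mostly low on the scale of the array: 48 lay below the median of all probe sets by their mean over the 24 arrays, and 15 above it. Arrays correlated with each other at 0.917 to 0.99, and hepatocyte markers averaged 13.15 ± 0.04 in alb-SREBP-1a∆P, 13.22 ± 0.07 in alb-SREBP-1a and 13.34 ± 0.05 in C57Bl6 (SD, n = 8 each). The standard deviation of the values on an array was 2.06 ± 0.03 in alb-SREBP-1a∆P, 2.19 ± 0.04 in alb-SREBP-1a and 2.22 ± 0.02 in C57Bl6. Changes between genotypes therefore are given below together with those of all probe sets of similar level.

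The first question was how the livers with the phosphorylation-deficient transgene differed from C57Bl6. In alb-SREBP-1a∆P liver 51 of the 63 genes were higher by the test and 0 lower, while 12 missed the threshold, with a median change of 0.48 and a range of 0.14 to 1.27. Over all probe sets 27.0% were called higher and 20.2% lower (47.2% in either direction), with a median change of 0.11. Of the genes, 36 of 44 Krtap and 15 of 19 Lce rose. The change was above 0 for 63 of 63 genes with the deposited values (59.6% of all probe sets), for 56 after quantile normalization, for 62 after median centring and for 58 after cyclic loess. These scalings moved the median change of all probe sets by −0.14, −0.16 and −0.11 in that order, and 25, 35 and 24 genes rose under them with 0 that fell. The share of all probe sets called higher was then 12.9%, 13.4% and 16%. Higher probe sets made up 57.1% of all calls with the deposited values, and 40.6%, 31.9% and 51.2% under the scalings. In bulk liver RNA, more cells of a type and more RNA per cell cannot be told apart.

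**Figure D1:**
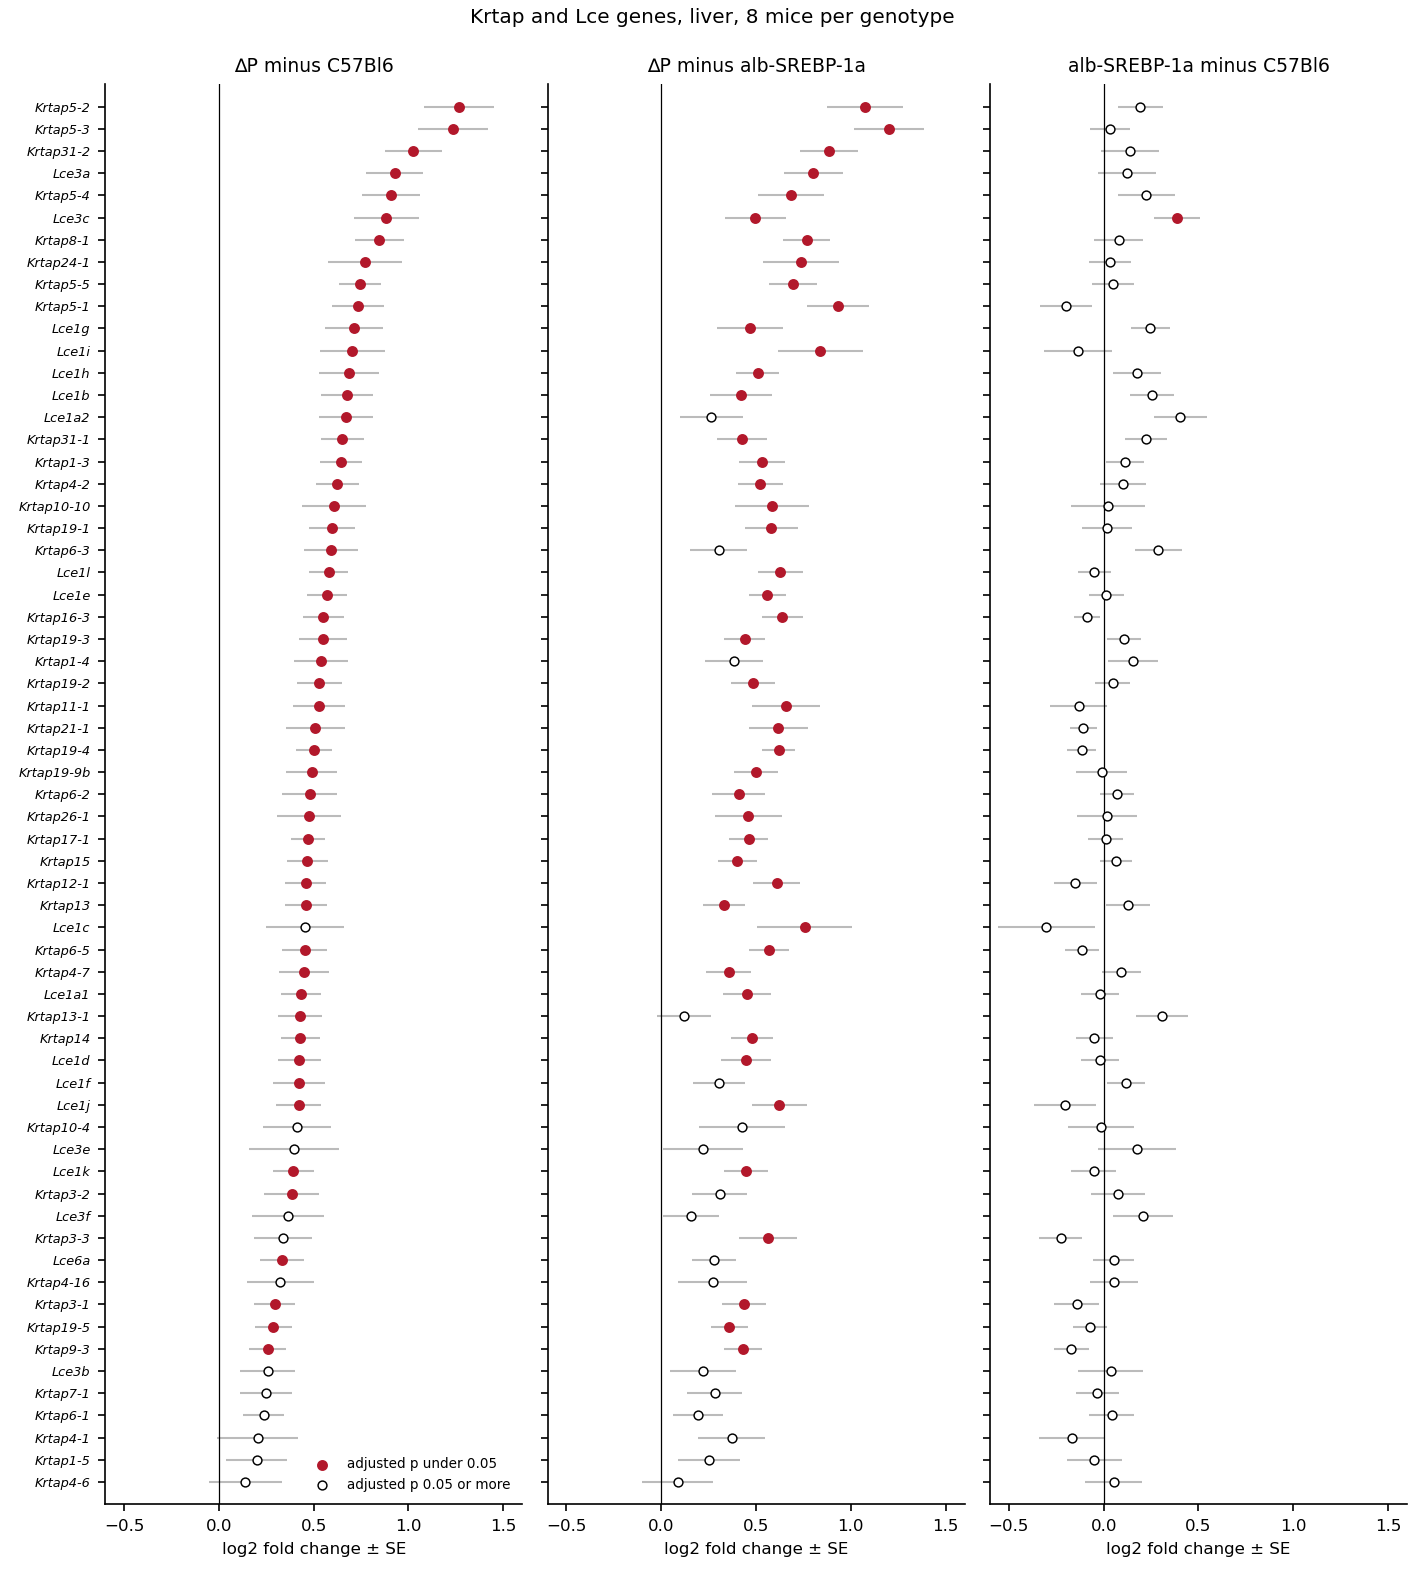
Log2 fold change ± SE (x axis) of the 63 Krtap and Lce genes (y axis, ordered by the left panel) for alb-SREBP-1a∆P minus C57Bl6 (left), alb-SREBP-1a∆P minus alb-SREBP-1a (middle) and alb-SREBP-1a minus C57Bl6 (right), with filled points for a limma adjusted p under 0.05. In the left and middle panels 51 and 46 points are filled and all 63 lie right of 0 with the deposited values (56 and 55 after quantile normalization), and in the right panel 1 is filled.

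The Krtap5 genes, which encode cysteine-rich proteins of the ultrahigh sulfur class, changed most: 5 of 5 rose, by 0.73 to 1.27. Krtap5-2 stood at 5.53, 6.42 and 6.99 (lowest, median and highest of 8 arrays) in alb-SREBP-1a∆P, at 4.99, 5.21 and 5.83 in alb-SREBP-1a and at 4.78, 5.13 and 5.38 in C57Bl6. Each alb-SREBP-1a∆P array lay above each C57Bl6 array, and the change against C57Bl6 was 1.27 ± 0.18 (2.41-fold, adjusted p = 4.23e-05). Krtap5-3 stood at 7.49, 8.06 and 9.25 in alb-SREBP-1a∆P, at 6.63, 6.98 and 7.31 in alb-SREBP-1a and at 6.49, 6.91 and 7.23 in C57Bl6. The alb-SREBP-1a∆P arrays overlapped with neither of the other genotypes, and the change against C57Bl6 was 1.24 ± 0.18 (adjusted p = 5.28e-05). Krtap5-5 rose by 0.74 ± 0.11, again with 8 of 8 arrays above every C57Bl6 array, while Krtap5-4 (0.91 ± 0.15) and Krtap5-1 (0.73 ± 0.14) had 7 of 8 arrays above.

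Of the other ultrahigh sulfur genes, with classes taken from the human nomenclature, Krtap17-1 and Krtap9-3 have probe sets of rather high signal. Krtap17-1 averaged 8.98 ± 0.19 in alb-SREBP-1a∆P and 8.51 ± 0.14 in C57Bl6, with 8 of 8 arrays above. Its rise of 0.47 ± 0.09 (adjusted p = 0.000518) stood in a level group whose median change was −0.29. Krtap9-3 averaged 7.43 ± 0.20 in alb-SREBP-1a∆P and 7.17 ± 0.17 in C57Bl6, and its rise of 0.26 ± 0.10 (adjusted p = 0.0387) did not pass without any 1 of 10 of the 16 arrays. Of the 5 Krtap4 genes 2 rose, and Krtap4-2 had the smallest p with 0.62 ± 0.11 (adjusted p = 0.000316, with a change of 0.37 after quantile normalization and 0.36 after cyclic loess). At the other end Krtap4-6 changed by 0.14 ± 0.19 and Krtap4-1 by 0.20 ± 0.21, neither past the test. Together 9 of 12 ultrahigh sulfur genes rose, with a median change of 0.55.

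Of the 13 genes of the high glycine-tyrosine class (Krtap6, Krtap7, Krtap8, Krtap19 and Krtap21), which encode small matrix proteins rich in these residues, 11 rose with a median of 0.50. Krtap8-1 stood at 5.76, 6.12 and 6.51 in alb-SREBP-1a∆P, at 5.05, 5.38 and 5.83 in alb-SREBP-1a and at 4.81, 5.35 and 5.57 in C57Bl6. No alb-SREBP-1a∆P array overlapped with C57Bl6, and the change was 0.85 ± 0.13 (adjusted p = 6.39e-05). All 6 Krtap19 genes rose, by 0.29 to 0.60, and Krtap19-4 had the smallest p among them. Krtap19-4 averaged 7.09 ± 0.19 in alb-SREBP-1a∆P and 6.58 ± 0.16 in C57Bl6, with 8 of 8 arrays above (0.50 ± 0.09, adjusted p = 0.000399). Of the 4 Krtap6 genes 3 rose, among them Krtap6-3 by 0.59 ± 0.14 (adjusted p = 0.00296, and 0.21 and 0.184 after quantile normalization and cyclic loess). Krtap7-1 (0.25 ± 0.14, adjusted p = 0.15) and Krtap6-1 (0.24 ± 0.11, adjusted p = 0.0838) were the 2 genes of this class that did not pass.

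The high sulfur class, here the Krtap1, Krtap3, Krtap10 to Krtap15, Krtap24 and Krtap26 genes of the hair shaft, had 13 of 16 genes that rose, with a median of 0.46. Krtap24-1 stood at 4.26, 5.40 and 6.03 in alb-SREBP-1a∆P, at 4.21, 4.60 and 4.85 in alb-SREBP-1a and at 4.20, 4.62 and 4.78 in C57Bl6. In 7 of 8 alb-SREBP-1a∆P arrays it lay above every C57Bl6 array, and replicate 4 lay within the range of C57Bl6 (0.77 ± 0.19, adjusted p = 0.00396). After cyclic loess its change was 0.51 and no longer passed (adjusted p = 0.0537). Krtap1-3 rose by 0.65 ± 0.11 with 8 of 8 arrays above (adjusted p = 0.000181), Krtap10-10 by 0.61 ± 0.17 (adjusted p = 0.0076) and Krtap13 by 0.46 ± 0.11 (adjusted p = 0.0028, and 0.48 after quantile normalization). Krtap3-1 rose by 0.29 ± 0.11 (adjusted p = 0.0352), which did not pass without any 1 of 8 of the 16 arrays. Krtap1-5 (0.20 ± 0.16), Krtap3-3 (0.34 ± 0.15) and Krtap10-4 (0.41 ± 0.18) did not pass. Krtap16-3, Krtap31-1 and Krtap31-2 were put in no class here. Krtap31-2 stood at 4.56, 5.33 and 5.51 in alb-SREBP-1a∆P, at 3.74, 4.44 and 4.69 in alb-SREBP-1a and at 3.70, 4.22 and 4.72 in C57Bl6. It rose by 1.03 ± 0.15 against C57Bl6 (adjusted p = 4.34e-05) with 7 of 8 arrays above, next to 0.65 ± 0.11 for Krtap31-1 and 0.55 ± 0.11 for Krtap16-3, each with 8 of 8 arrays above.

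Among the Lce genes 12 of 13 Lce1 genes rose, by 0.39 to 0.71, 2 of 5 Lce3 genes rose and the single Lce6 gene, Lce6a, rose by 0.33 ± 0.12. Lce3a stood at 4.48, 4.98 and 5.36 in alb-SREBP-1a∆P, at 3.82, 4.09 and 4.82 in alb-SREBP-1a and at 3.67, 3.98 and 4.62 in C57Bl6. In 6 of 8 alb-SREBP-1a∆P arrays it lay above every C57Bl6 array (0.93 ± 0.15, adjusted p = 0.000126, with a change of 0.62 after cyclic loess). Lce3c stood at 4.51, 5.52 and 5.74 in alb-SREBP-1a∆P, at 4.61, 4.81 and 5.30 in alb-SREBP-1a and at 4.07, 4.46 and 4.86 in C57Bl6. Its change against C57Bl6 was 0.88 ± 0.17 (adjusted p = 0.000524) with 7 of 8 arrays above. The other 3 Lce3 genes, Lce3b, Lce3e and Lce3f, had changes of 0.26 ± 0.14, 0.39 ± 0.24 and 0.36 ± 0.19 that did not pass. Within Lce1, Lce1g had the largest change (0.71 ± 0.15, 8 of 8 arrays above, adjusted p = 0.00121, and 0.0642 after quantile normalization). Lce1i rose by 0.70 ± 0.17 (adjusted p = 0.0033, and 0.07 after quantile normalization), Lce1l by 0.58 ± 0.10 with the smallest p of the group (adjusted p = 0.000279, with a change of 0.35 after quantile normalization) and Lce1k by 0.39 ± 0.11 (adjusted p = 0.00715). Lce1c was the Lce1 gene that did not pass (0.45 ± 0.21, adjusted p = 0.0812), and it passed without alb-SREBP-1a∆P replicate 6 or without C57Bl6 replicate 1.

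**Figure D2:**
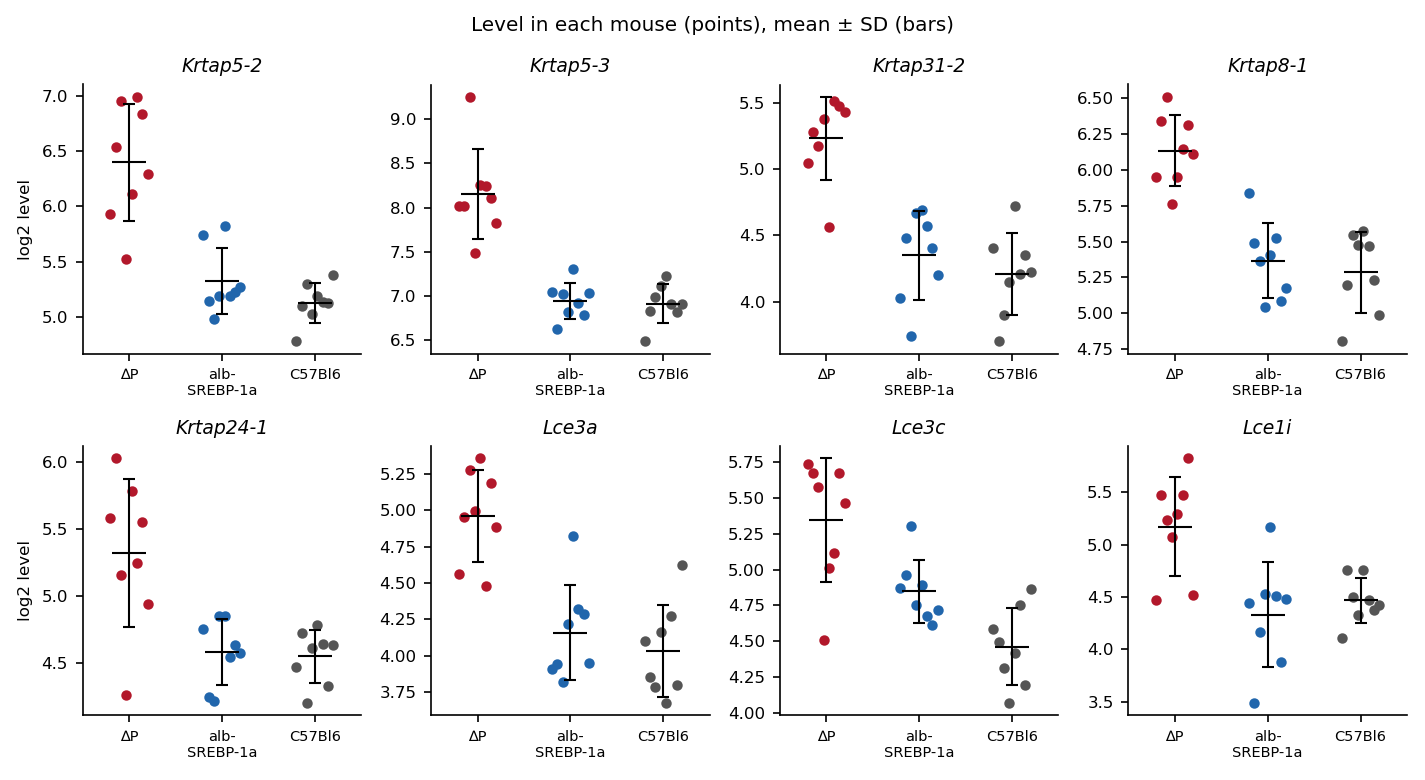
Log2 level (y axis) of 8 Krtap and Lce genes in each of 8 alb-SREBP-1a∆P (left), 8 alb-SREBP-1a (middle) and 8 C57Bl6 livers (right), 1 point per mouse with mean ± SD. For Krtap5-3 the alb-SREBP-1a∆P points start at 7.49, above the highest alb-SREBP-1a value of 7.31 and the highest C57Bl6 value of 7.23.

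**Figure D3:**
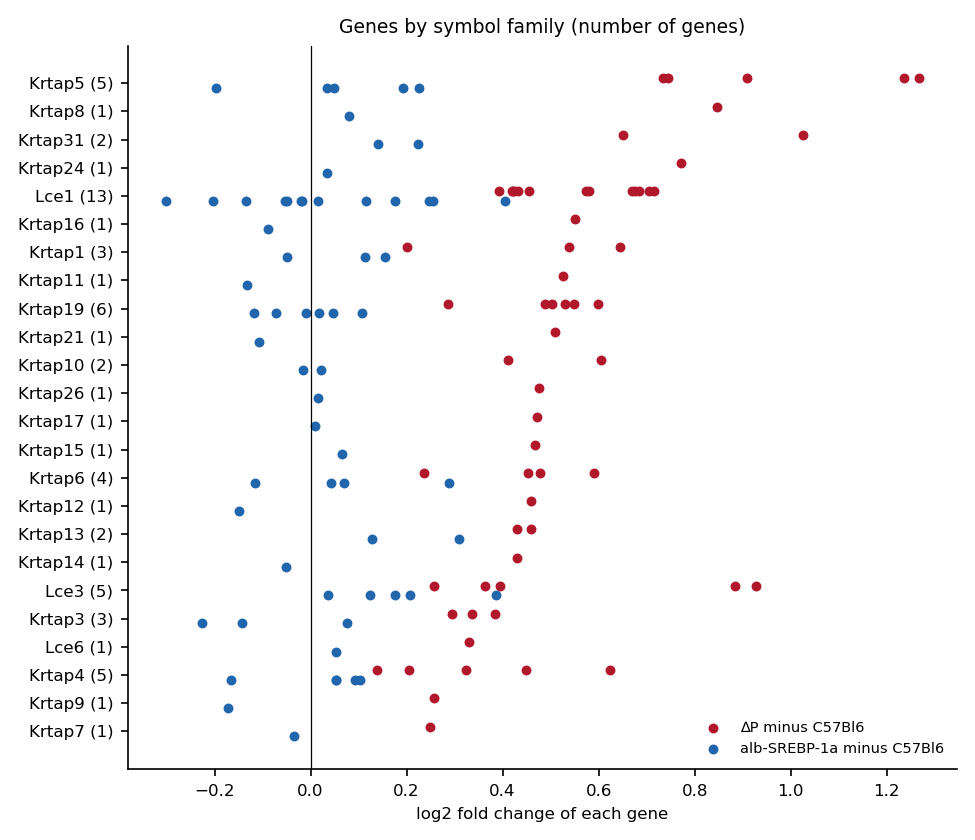
Log2 fold change (x axis) of each gene, grouped by symbol family (y axis, number of genes in parentheses), for alb-SREBP-1a∆P minus C57Bl6 (upper point of each row) and alb-SREBP-1a minus C57Bl6 (lower point). The Krtap5 genes lie at 0.73 to 1.27 for alb-SREBP-1a∆P and at −0.20 to 0.23 for alb-SREBP-1a.

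Changes in alb-SREBP-1a∆P followed the level of a probe set, which bears on genes as dim as these. All probe sets were put into 10 equal groups by their mean level over the 24 arrays. The median change against C57Bl6 was 0.37 in the dimmest group, 0.18 in the fifth and −0.29 in the ninth. Of the 63 genes 58 lay above the median change of their own level group, and the median difference over all 63 was 0.27. In the 7th to 9th groups, whose medians were −0.04, −0.23 and −0.29, the 12 genes found there had changes of 0.26 to 1.24, and 11 of them rose. Of the 15 genes above the median level 14 rose, and of the 48 below it 37 rose. Of all probe sets, at most 24% were called higher in each of level groups 6 to 10. In level groups 1 to 5, the dimmer ones, the share was 31.5 to 43.6%. The groups of arrays did not overlap for 12 genes, all with higher levels in alb-SREBP-1a∆P, against 5.34% of all probe sets with such higher levels and 6.47% with every alb-SREBP-1a∆P array lower.

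**Figure D4:**
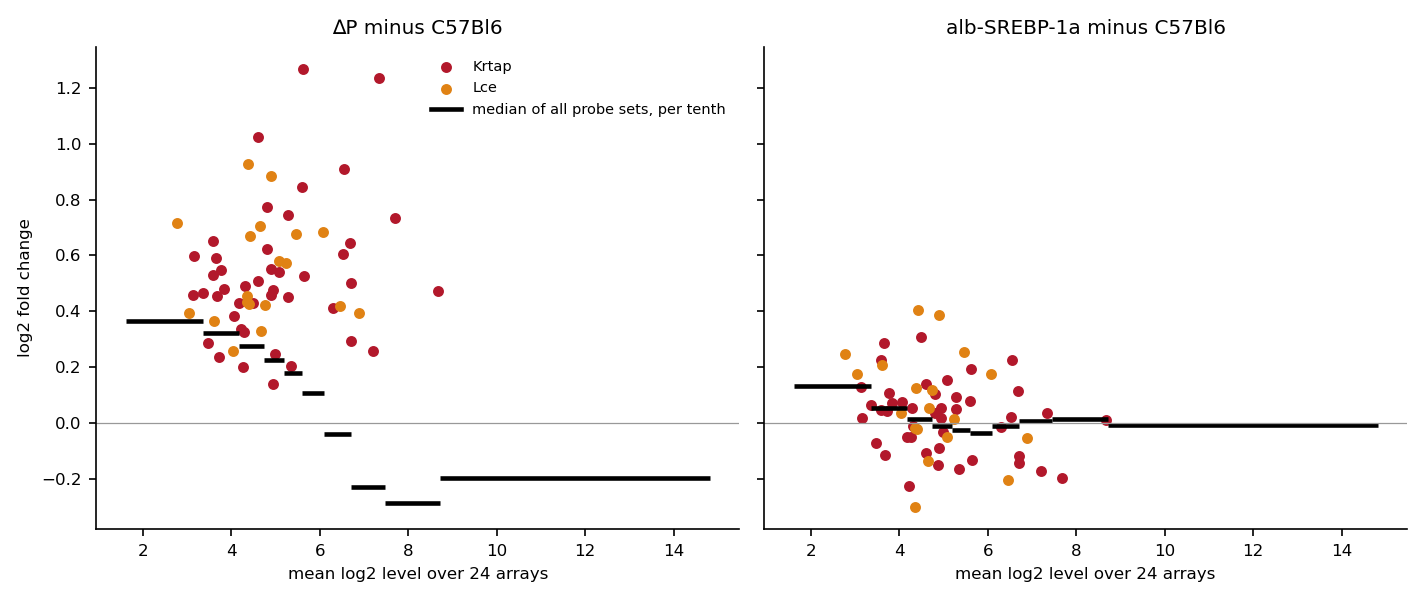
Log2 fold change (y axis) against the mean log2 level over 24 arrays (x axis) of the Krtap and Lce genes (points), with the median of all probe sets in each of 10 level groups (black bars), for alb-SREBP-1a∆P minus C57Bl6 (left) and alb-SREBP-1a minus C57Bl6 (right). On the left 58 of 63 points lie above the bar of their group, on the right 32 of 63.

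Across mice the 63 genes moved with the dim part of the array. The median level of the 63 genes on an array ran from 4.94 to 5.28 in alb-SREBP-1a∆P, from 4.54 to 4.85 in alb-SREBP-1a and from 4.45 to 4.72 in C57Bl6. The alb-SREBP-1a∆P arrays did not overlap with the others. The median of all probe sets below the median level ran from 4.54 to 4.71 in alb-SREBP-1a∆P, from 4.30 to 4.48 in alb-SREBP-1a and from 4.29 to 4.41 in C57Bl6, without overlap as well. Both medians come from the same arrays and normalization, and their correlation was 0.953 over the 24 arrays and 0.767, 0.591 and 0.533 within alb-SREBP-1a∆P, alb-SREBP-1a and C57Bl6. The part of the general shift of dim probe sets in the changes of single genes was not tested. Within genotypes the levels of pairs of the 63 genes varied together only weakly, with a median correlation of 0.155 over 1953 pairs and a range of −0.637 to 0.84.

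**Figure D5:**
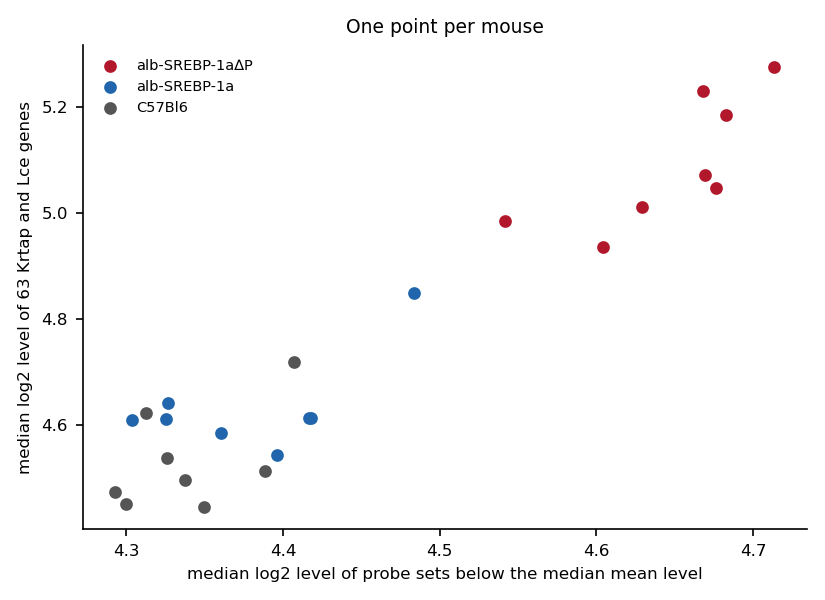
Median log2 level of the 63 Krtap and Lce genes (y axis) against the median of all probe sets below the median level (x axis), 1 point per mouse. The alb-SREBP-1a∆P points lie at 4.94 or higher on the y axis, above the alb-SREBP-1a and C57Bl6 points, which reach 4.85 and 4.72.

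The second question was whether the transgene with its phosphorylation sites had the same effect. In alb-SREBP-1a liver 1 of the 63 genes was higher by the test, 0 were lower and 62 missed the threshold, next to 6.77% of all probe sets called higher and 3.98% lower (10.8% in either direction). With limma 6 of the 63 genes had an unadjusted p under 0.05, all of them higher, next to 8738 of all 35556 probe sets in either direction. The methods' t-test called 0 of the 63 after adjustment, next to 3807 of all probe sets. The median change was 0.04, with a range of −0.30 to 0.41, and 39 genes lay above and 24 below 0 (31 above after quantile normalization), while 52.3% of all probe sets lay above. The groups of arrays overlapped for each of the 63 genes, while for 2.03% of all probe sets every alb-SREBP-1a array lay above every C57Bl6 array and for 1.03% below. Lce3c was the gene that rose, with 4.85 ± 0.22 in alb-SREBP-1a and 4.46 ± 0.27 in C57Bl6 (0.39 ± 0.12, adjusted p = 0.0458). The call held in 3 of 16 fits that left out 1 array, and over these fits the change ran from 0.32 to 0.44. It was also lost with all 24 arrays in 1 fit (adjusted p = 0.133). Lce1a2 had a change of 0.41 ± 0.14 (adjusted p = 0.0764) and Krtap13-1 one of 0.31 ± 0.14, and the lowest value was that of Lce1c at −0.30 ± 0.25. The Krtap5 genes, with 5 of 5 that rose in alb-SREBP-1a∆P, had changes of −0.20 to 0.23 in alb-SREBP-1a, none past the test.

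The third comparison set the transgene without phosphorylation sites directly against the one with them. Here 46 of the 63 genes were higher in alb-SREBP-1a∆P by the test, 0 lower, and 17 missed the threshold, next to 22.8% of all probe sets called higher and 21.4% lower (44.2% in either direction). The change was above 0 for 63 of 63 genes (55, 60 and 53 after quantile normalization, median centring and cyclic loess, and 56.2% of all probe sets), with a median of 0.46 and a range of 0.09 to 1.20. Under these scalings 22, 30 and 21 genes rose and 0 fell, while 9.62%, 10.1% and 11.3% of all probe sets were called higher. Calls of higher probe sets made up 51.6% of all calls with the deposited values, and 41.1%, 23.9% and 52.2% under the scalings. Both comparisons of alb-SREBP-1a∆P use the same 8 arrays of that line, so their counts are not independent of each other.

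Krtap5-3 had the largest difference, with 8.15 ± 0.51 in alb-SREBP-1a∆P and 6.95 ± 0.21 in alb-SREBP-1a (1.20 ± 0.18, adjusted p = 0.000235). Krtap5-2 followed with 1.08 ± 0.20, Krtap5-1 with 0.93 ± 0.16, Krtap31-2 with 0.89 ± 0.15, Lce1i with 0.84 ± 0.23, Lce3a with 0.80 ± 0.15 and Krtap8-1 with 0.77 ± 0.12, each past the test. After quantile normalization Lce1i no longer passed (adjusted p = 0.0582). Lce1c differed by 0.76 ± 0.25 (adjusted p = 0.0228), yet 0 of its 8 alb-SREBP-1a∆P arrays lay above the highest alb-SREBP-1a array, and its adjusted p was 0.149 after quantile normalization. Krtap10-10 rose by 0.58 ± 0.20 (adjusted p = 0.0248), which was lost without alb-SREBP-1a∆P replicate 3 or 6 or without alb-SREBP-1a replicate 6. Lce1g rose by 0.47 ± 0.17 (adjusted p = 0.0365), a call lost in 7 of 16 fits that left out 1 array and after quantile normalization (adjusted p = 0.297). Complete separation of the arrays was found for 5 genes, Krtap5-3, Krtap6-5, Krtap16-3, Krtap19-4 and Lce1e, all higher in alb-SREBP-1a∆P, against 1.88% of all probe sets that were higher and 4.06% that were lower in this way. Lce3c, the gene that rose in both lines against C57Bl6, differed between the lines by 0.50 ± 0.16, with the higher level in alb-SREBP-1a∆P (adjusted p = 0.0217, and 0.231 after quantile normalization). Among the genes that rose in alb-SREBP-1a∆P against C57Bl6 but did not pass against alb-SREBP-1a were Krtap6-3 (0.30 ± 0.15), Lce1a2 (0.26 ± 0.16) and Krtap13-1 (0.12 ± 0.14). Against their level groups 53 of the 63 genes lay above the median, and the median difference over all 63 was 0.25.

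A further 16 probe sets carry several symbols that include a Krtap or Lce gene, so that their values belong to no single gene. All 16 rose in alb-SREBP-1a∆P against C57Bl6 (0.59 to 1.34, median 0.74) and against alb-SREBP-1a (0.59 to 1.33, median 0.69). Over all probe sets 27.0% and 22.8% were called higher in these comparisons. In alb-SREBP-1a against C57Bl6 0 passed. Some of the 16 list the same symbols, so they are not separate measurements. Those of Gm11562, Gm11938 and Krtap2-4 changed by 0.71 to 0.73 against C57Bl6 in alb-SREBP-1a∆P. The probe set that lists Krtap6-1 and Krtap6-5 together with Gm10228, Gm10229 and 1110025L11Rik rose by 1.34 ± 0.17 against C57Bl6. For the Krtap5 genes the 4 shared probe sets rose by 0.85 to 1.06. How far probes of 1 family member bind RNA of another was not tested.

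Partners of these proteins in hair and epidermis were counted by lists. Of all probe sets 27.0% were called higher and 20.2% lower in alb-SREBP-1a∆P against C57Bl6. In level groups 1 to 5, where most of these partners lie, 31.5 to 43.6% were called higher. The shares of hair follicle keratins and of enzymes given below lie within that range. Keratins of the hair follicle, which include the shaft keratins to which Krtap proteins bind, had 8 of 21 genes that rose (38.1%). Of them 0 fell, and the median change was 0.27. Among them were Krt35 (0.45 ± 0.08), Krt82 (0.36 ± 0.08) and Krt73 (0.59 ± 0.13). Of the other cornified envelope precursors 17 of 31 rose (54.8%) and 0 fell, with a median of 0.34, and the small proline-rich protein Sprr2d was the one with the smallest p. Sprr2d averaged 5.84 ± 0.19 in alb-SREBP-1a∆P and 5.16 ± 0.13 in C57Bl6 (0.67 ± 0.09, 8 of 8 arrays above), next to 0.62 ± 0.10 for the trichohyalin-like Tchhl1 and 0.57 ± 0.10 for Sprr2f. Among 19 enzymes of envelope crosslinking, deimination and shedding 7 rose (36.8%), led by the kallikrein protease Klk14 (0.74 ± 0.13), and 1 fell.

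The remaining lists had shares near or below that of all probe sets, or few genes. Of 14 transcription factors of hair shaft and epidermis 4 rose (28.6%) and 0 fell, Lef1 by 0.42 ± 0.09, Trp63 by 0.35 ± 0.07, Grhl3 by 0.41 ± 0.09 and Msx2 by 0.39 ± 0.14. Hoxc13 and Foxn1, which drive hair keratin genes in the follicle and are named here after their values were seen, changed by 0.02 ± 0.12 and 0.08 ± 0.08. Of 20 epidermal keratins 3 rose (15%) and 0 fell, Krt6b by 0.92 ± 0.16, Krt13 by 0.35 ± 0.14 and Krt24 by 0.26 ± 0.09. Of 4 desmosomal cadherins 2 rose and 0 fell. Krt8, a keratin that hepatocytes themselves make, fell by 0.39 ± 0.08, the 1 call among 6 keratins of simple epithelia. Krt8 lies in the brightest level group, where 47.1% of all probe sets were called lower.

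In alb-SREBP-1a against C57Bl6 these lists held 1 call, a fall of the hair follicle keratin Krt27 by 0.39 ± 0.12 (adjusted p = 0.0448). Between the transgenic lines 22.8% of all probe sets were called higher and 21.4% lower in alb-SREBP-1a∆P. In level groups 1 to 5 the share called higher was 21.7 to 38.3%. Of the lists, 12 of 21 hair keratins (57.1%) and 22 of 31 other envelope precursors (71%) rose. So did 8 of 20 epidermal keratins (40%) and 9 of 19 enzymes (47.4%), and in these lists 0 fell. In the same comparison 5 of 14 transcription factors rose and 1 fell, 2 of 6 keratins of simple epithelia rose and 2 fell, and the 4 desmosomal cadherins did not pass.

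For markers of skin cells the share that rose in alb-SREBP-1a∆P against C57Bl6 was close to the 27.0% of all probe sets. That share lay below the 31.5 to 43.6% in level groups 1 to 5, where most of these markers lie. Of 12 keratinocyte markers 3 rose (25%) and 0 fell, and their mean level ran from 5.21 to 5.43 in alb-SREBP-1a∆P, from 4.92 to 5.26 in alb-SREBP-1a and from 5.04 to 5.27 in C57Bl6. Those that rose were Trp63 (0.35 ± 0.07) and the desmosomal cadherins Dsg3 (0.34 ± 0.10) and Dsc3 (0.44 ± 0.14). The basal keratins Krt5 and Krt14 did not pass, with changes of −0.02 ± 0.08 and 0.29 ± 0.12. Of 11 hair follicle markers 3 rose (27.3%) and 0 fell, with mean levels of 4.94 to 5.24 in alb-SREBP-1a∆P, 4.76 to 5.03 in alb-SREBP-1a and 4.90 to 5.24 in C57Bl6. Between the transgenic lines 4 of 12 keratinocyte (33.3%) and 4 of 11 hair follicle markers (36.4%) rose in alb-SREBP-1a∆P and 0 fell. In that comparison 22.8% of all probe sets were called higher, and 21.7 to 38.3% in level groups 1 to 5. The part of RNA from skin cells in the changes of the 63 genes was not tested.

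Of the markers of liver cells, 1 of 11 for hepatocytes rose and 6 fell in alb-SREBP-1a∆P against C57Bl6. These markers lie in the brightest level group, where 12.9% of all probe sets were called higher and 47.1% lower. Against C57Bl6 2 of 9 Kupffer cell and leukocyte markers rose (22.2%), as did 1 of 10 endothelial and stellate cell markers (10%). Of the cholangiocyte markers 1 of 8 rose (12.5%), and in each of these lists 0 fell. Each share lay below the 27.0% of all probe sets. In level groups 7 to 10, however, at most 16.6% of all probe sets were called higher. The share of Kupffer cell and leukocyte markers lay above this value, and that of endothelial and stellate cell markers below it. Against alb-SREBP-1a 4 of 9 Kupffer cell and leukocyte markers (44.4%) fell and 1 rose. Of 10 endothelial and stellate cell markers 5 fell (50%) and 1 rose. Over all probe sets 22.8% were called higher and 21.4% lower in this comparison, and 29.3 to 62.3% lower in level groups 7 to 10. In alb-SREBP-1a against C57Bl6 these 2 lists had 3 of 9 (33.3%) and 2 of 10 (20%) that rose and 0 that fell. There 6.77% of all probe sets were called higher, and 6.83 to 14.1% in level groups 7 to 10. Between the transgenic lines 1 of 11 hepatocyte markers fell and 0 rose, and 1 of 8 cholangiocyte markers rose and 0 fell. The part of these cells in the changes of the 63 genes was not tested.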

How the data were processed

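Liver RNA (150 ng per array) of 24 mice was measured on 1 Affymetrix Mouse Gene array each. The deposited log2 values were computed by the authors with RMA in Affymetrix Expression Console, and its settings are not given there. Of 35556 probe sets 21789 carry 1 symbol in the platform annotation, 1621 several and 12146 none. The deposited columns do not share 1 distribution, although RMA as usually run makes them alike, which is why other scalings were tried. No value is missing, and no array was left out. For each comparison 8 arrays were set against 8 with limma 3.58.1 (R 4.3.3), with Benjamini-Hochberg adjustment over all probe sets. The number of arrays limits the precision, and p-values cover the variation among these animals alone. No set test was run. The members and the gene lists were chosen with earlier results of these data known.

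Named genes were, per comparison, the 8 called members of largest change in each direction, for alb-SREBP-1a∆P against C57Bl6 the member of smallest p in each subfamily of 2 or more, the 5 of highest and 3 of lowest mean level, and per list up to 3 genes of smallest p. Other members named beside them were chosen after their values were seen. Subfamilies follow the symbols, and Krtap classes follow the human nomenclature from general knowledge. Promoters came from a RefSeq table of GRCm38.p6. The alternatives tried were a joint fit of all 24 arrays, a block on the replicate number, quantile normalization, median centring, cyclic loess, removal of dim probe sets, a variance model with trend, array weights, 1 probe set or the mean per gene, the methods' t-test and thresholds, and the omission of arrays, the last chosen after seeing the data. The fits were checked on simulated data. Python 3.11.15, numpy 2.4.6, pandas 2.3.3 and matplotlib 3.10.9 served for tables and figures.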

Additional observations from a re-analysis of the deposited data

Results flagged for a closer look

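For the 24 named genes, the highest or lowest of the 8 arrays of a genotype was set against the range of the group. Of 72 groups 6 had an array far from the others, and chance gives about 1 in 20. Krtap5-3 reached 9.25 in alb-SREBP-1a∆P replicate 3, with the next array at 8.26. Krtap5-1 was lowest in alb-SREBP-1a∆P replicate 4 at 7.48, with the next at 8.12. Krtap10-10 reached 7.42 in alb-SREBP-1a replicate 5, with the next at 6.38. Krtap13 was set apart in each genotype in the array with replicate number 4, at 3.88 in alb-SREBP-1a∆P (next 3.4), 3.61 in alb-SREBP-1a (next 3.09) and, on the low side, 2.41 in C57Bl6 (next 2.83).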

How the results depend on the processing

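Of the Krtap and Lce genes 51 rose in alb-SREBP-1a∆P and 1 in alb-SREBP-1a, each set against C57Bl6, and 46 rose between the transgenic lines, which is the order of the counts below. Quantile normalization gave 25, 0 and 22, cyclic loess 24, 1 and 21, and centring on the median 35, 1 and 30. Leaving out the dimmer probe sets (level under the median) left 15 genes to test and gave 14, 0 and 14, and the methods' thresholds gave 21, 0 and 18. The middle count was 0 with all 24 arrays in 1 fit, with the replicate block, with the methods' t-test and without alb-SREBP-1a replicates 1 and 2, and 2 with the table reduced to 1 probe set, or to the mean of the probe sets, per gene. With 1 array left out the counts ran from 47 to 54, from 0 to 1 and from 42 to 52. No setting gave a gene that fell. Between the transgenic lines Lce3e (0.22 ± 0.21) turned to −0.018 after quantile normalization and −0.044 after cyclic loess. The cause of these shifts was not tested.

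Samples of the genotypes share numbers 1 to 8, but the numbers gave no clear pairing. Same-numbered deviations correlated above 0.1 in 1, 2 and 2 of 8 pairs, with a highest value of 0.279. The same-numbered array was the closest of the 8 in 3, 2 and 2 of 8 pairs. With the replicate number as a block 51, 0 and 42 genes rose.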
